A study of Homo sapiens with 4 samples.

Results

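Transcript levels of the mitochondrial ribosomal protein genes were compared in the human neuroblastoma line SH-SY5Y, which has neuronal features, after knockdown of the histone demethylase LSD1. The genes were taken by symbol (MRPL or MRPS, a number and at most a letter from A to C) from probe sets that carried 1 gene symbol. This gave 75 of the 19775 genes on the Affymetrix arrays, 48 of them MRPL and 27 MRPS genes, and where a gene had several such probe sets the one with the highest level over the 4 arrays stood for it.  The siLSD1 group consisted of 2 arrays from cells that had received a small interfering RNA against LSD1, the product of KDM1A. The siControl group consisted of 2 arrays from cells that had received a control siRNA. All arrays thus come from 1 transfected cell line, and the sources used here do not give the time between transfection and harvest. Per the series' design text, the arrays of a group came from separate transfections, so p-values measure the spread between transfections. MRPL53 and MRPS24 were left out because their probe sets name a second gene as well.

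Mitochondria make a few subunits of the respiratory chain on ribosomes of their own. These mitoribosomes have a large and a small subunit, and their proteins are all encoded in the nucleus, made in the cytosol and imported. Some of the proteins descend from those of bacterial ribosomes, others are found in mitoribosomes only. Neuronal cells draw much of their energy from the respiratory chain, and inherited defects of mitoribosomal proteins impair several of its complexes at once.

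All levels below are log2 signals after quantile normalization, and all differences are siLSD1 minus siControl. KDM1A read 9.79 and 9.78 in siControl and 8.40 and 8.54 in siLSD1, a 2.50-fold lower mean (limma adjusted p = 0.390). Its difference of -1.32 ran from -1.39 to -1.25 as each array was left out. Without adjustment, limma's p for KDM1A was 3.28e-05, the smallest of all 11865 genes tested. Of 9 noradrenergic neuroblastoma markers with a value, 8 lay above the filter on low signals (4.12), while TH did not. All 5 fibroblast markers also lay above it, with medians of 6.25 to 6.88 over the arrays, and 4 of them had a higher mean in siLSD1. Of 4 blood cell markers, HBB alone did, and their medians ran from 2.15 to 2.73. The part of these markers in the results was not tested, and fewer cells of a type cannot be told apart from less RNA per cell. siControl replicate 1 stood apart, with a mean correlation of 0.958 with the other arrays, against 0.972 to 0.973 for those. On siLSD1 replicate 2 the 3′ probe set of ACTB exceeded the 5′ one by 1.16, against 0.54 to 0.71 on the other arrays, and that of GAPDH by 0.30, against -0.030 to 0.0014.

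Mitochondrial ribosomal protein genes were mostly a little lower in siLSD1 cells. All 75 passed the filter, and 59 of them (78.7%) had a lower and 16 (21.3%) a higher mean, where 48.7% of the 11865 genes tested had a lower and 51.3% a higher one. Their median difference was -0.12, or 1.09-fold, beside 0.0068 for all genes tested. Centring each array on its median moved all genes to a median of 0.18 and these genes to 0.067, so that 27 of 75 then had a lower mean. Relative to the median of all genes they lay at -0.13, and at -0.11 under median centring, with 59 of 75 below it both times. The groups did not overlap, with siLSD1 the lower, for 34 members, or 45.3%, and with siLSD1 the higher for 3, or 4%. Over all genes these shares were 15.1% and 16.6%. The 48 MRPL genes (37 lower, median -0.11) and the 27 MRPS genes (22 lower, median -0.15) had similar counts, and both medians turned above 0 under median centring (0.070 and 0.035).

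No member passed the test for itself. In limma 0 of the 75 had an adjusted p under 0.05, as had 0% of all genes tested, and the adjusted p of every member was 0.9996. Without adjustment, limma's p was under 0.05 for MRPS10 among the higher members (1 of 75, all genes 2.29%) and MRPL23 among the lower (1 of 75, all genes 1.15%). The 95% interval of a member's difference had a median half-width of 0.43, several times the median difference. With 2 arrays against 2, an exact permutation test cannot give a p below 0.333.

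**Figure D1:**
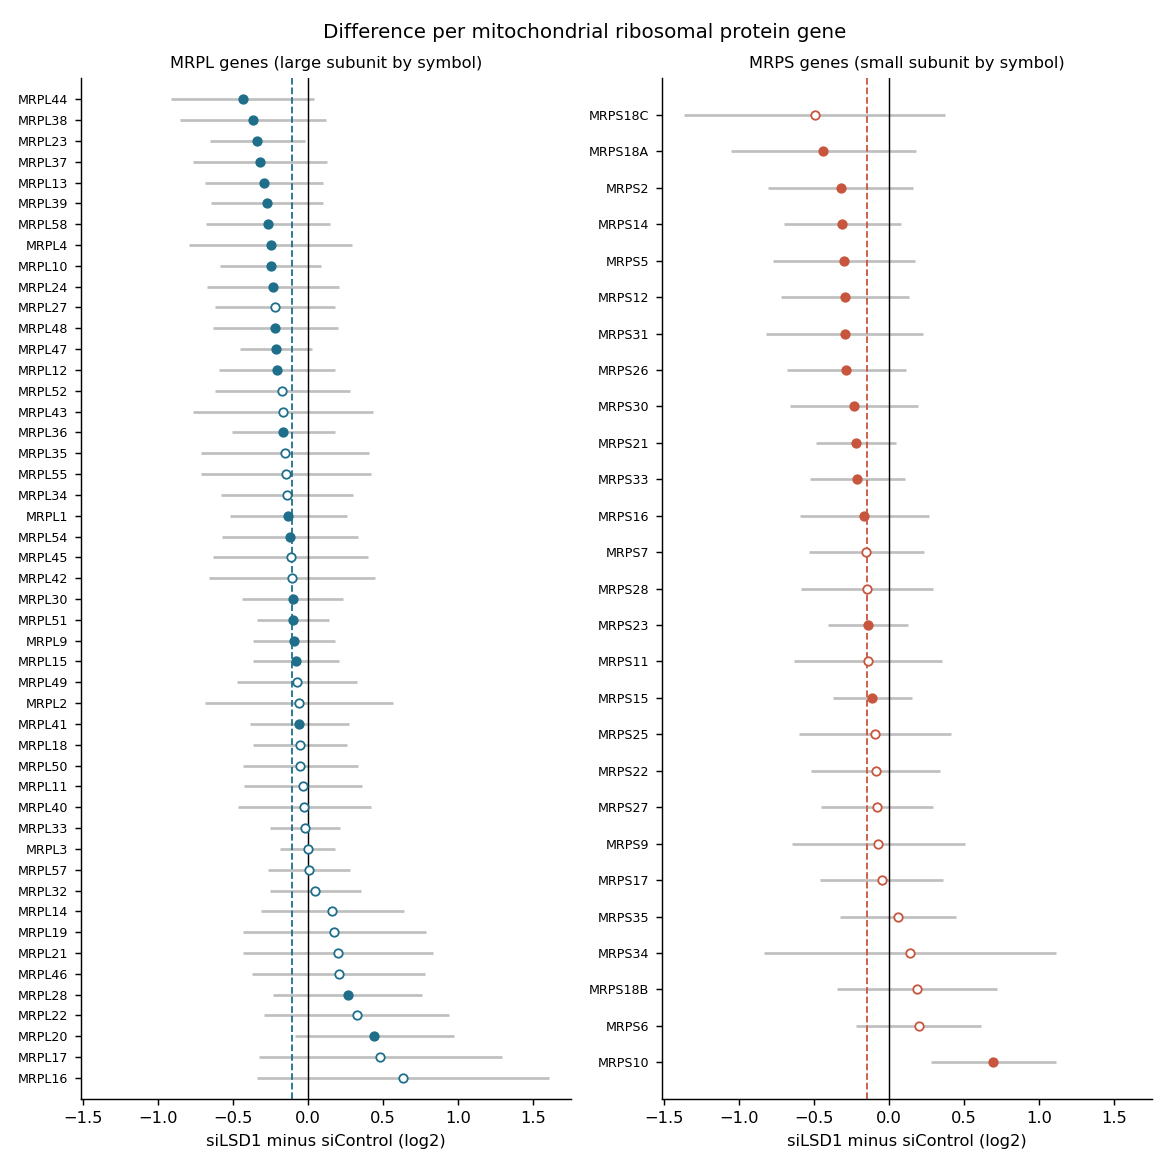
Difference between siLSD1 and siControl (log2, points) with limma's 95% interval (bars) for 48 MRPL and 27 MRPS genes, ordered by size; filled points mark genes whose groups do not overlap, the dashed line is the median. Most points lie left of 0 and close to it, and only the intervals of MRPL23 and MRPS10 leave out 0; under median centring both medians turn above 0.

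Each member was also set against its own mean over the arrays. The median of these deviations was 0.036 and 0.097 in siControl and -0.042 and -0.053 in siLSD1. The groups did not overlap. For all genes the same medians were 0.054 and -0.033 in siControl and -0.018 and 0.043 in siLSD1, so siControl replicate 2 and siLSD1 replicate 2 were the arrays on which the members departed most from other genes. Without siLSD1 replicate 2, the array with the largest 3′ to 5′ differences, 56 of 75 members had a lower mean. Their median was then -0.10, beside -0.019 for all genes, a gap of -0.083 against -0.13 with all arrays. Without siControl replicate 1, 62 members were lower, with a median of -0.15 beside 0.039 for all genes. Leaving out siControl replicate 2 gave 52 lower members and a median of -0.10, beside -0.055 for all genes, the smallest gap of all choices tried (-0.048, with 45 of 75 members below the median of all genes). The part of RNA quality in the shift was not tested.

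**Figure D2:**
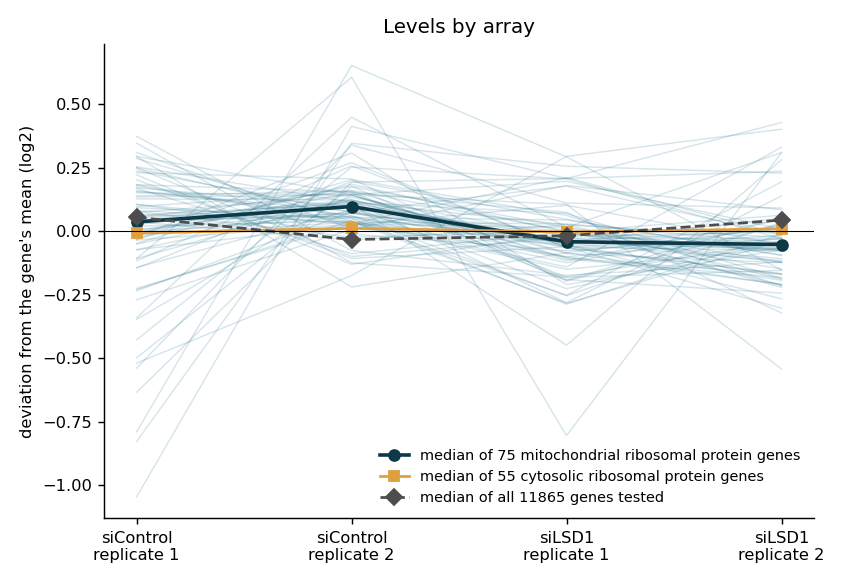
Deviation of each gene from its own mean (log2) on each array, for 75 mitochondrial ribosomal protein genes (thin lines, joining the values of 1 gene) and as medians of these genes, of 55 cytosolic ribosomal protein genes and of 11865 genes tested. The members' median is at 0.036 and 0.097 in siControl and at -0.042 and -0.053 in siLSD1, while several genes lie far down on siControl replicate 1 and MRPS18C on siLSD1 replicate 1.

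Among genes with an MRPL symbol, the lowest differences of members with separate groups belonged to MRPL44, MRPL38, MRPL23, MRPL37 and MRPL13. MRPL44, a protein of the large subunit related to ribonuclease III, was at 8.07 and 8.04 in siControl and at 7.65 and 7.59 in siLSD1. The replicates lay close together in both groups, and the difference was -0.44 (95% interval -0.91 to 0.042, SE 0.21, limma unadjusted p = 0.0686). MRPL23, the counterpart of the bacterial protein L23 near the exit of the peptide tunnel, was at 9.80 and 9.77 and then at 9.43 and 9.46. Both siLSD1 values were clearly below, with a difference of -0.34 (interval -0.65 to -0.021, limma unadjusted p = 0.0392). MRPL38, of the central protuberance, was at 8.30 and 8.17 in siControl and at 7.99 and 7.75 in siLSD1, a difference of -0.37. MRPL37 (-0.32) and MRPL13 (-0.29), the counterpart of bacterial L13, followed. MRPL37 was at -0.17 without siControl replicate 1. For MRPL44 and MRPL23 the difference hardly depended on any array, ranging from -0.46 to -0.41 and from -0.35 to -0.32 as each array was left out. With the mean of all probe sets of a gene, however, MRPL23 was at -0.077, MRPL38 at -0.059 and MRPL44 at -0.27. For MRPL23 and MRPL38 the other probe set lay under the filter, with means of 3.37 and 2.37. The MRPL genes above were named for their size and their separation, so the separation is no evidence of its own.

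The stalk proteins, which form the mobile arms where translation factors bind and where the empty tRNA leaves, were lower in all 5 tested genes, although 3 of them (MRPL1, MRPL11 and MRPL54) turned above 0 under median centring. MRPL10, the anchor of the factor-binding stalk, was at 9.62 and 9.62 in siControl and at 9.44 and 9.30 in siLSD1, a difference of -0.25. MRPL12, the stalk protein that MRPL10 holds, was at 9.42 and 9.27 and then at 9.26 and 9.02, a difference of -0.21. In both genes the groups were separate, though in MRPL12 by a narrow margin. MRPL12 was at -0.088 without siLSD1 replicate 2 and at 0.054 with the mean of its probe sets. The other probe set of MRPL12 lay under the filter, with a mean of 3.12. MRPL1, of the L1 stalk, differed by -0.13, MRPL54 by -0.12 and MRPL11 by -0.036, the last with overlapping groups. The spread of the differences across these 5 genes (SD 0.083) was smaller than that across all 75 members (SD 0.23).

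Around the exit of the peptide tunnel, 4 of 6 genes were lower and 2 higher (median -0.16). Apart from MRPL23, these were MRPL24 (-0.24, and -0.084 without siControl replicate 2), MRPL47 (-0.21), the counterpart of bacterial L29, and MRPL45 (-0.12, and 0.12 under median centring), which helps to tie the ribosome to the inner membrane. MRPL47 was at 10.51 and 10.58 in siControl and at 10.35 and 10.32 in siLSD1. Its values were tight within groups and its groups did not overlap. MRPL17 (0.48) and MRPL22 (0.32) went the other way. Both were low on siControl replicate 1 alone, and without that array MRPL17 was at -0.10 and MRPL22 at -0.013.

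In the central protuberance, the knob on the side of the large subunit that faces the small one, 6 of 7 genes were lower (median -0.14). Next to MRPL38 these were MRPL27 (-0.22), MRPL48 (-0.22), MRPL55 (-0.14), MRPL18 (-0.053) and MRPL40 (-0.025), of which MRPL55, MRPL18 and MRPL40 turned above 0 under median centring. Only MRPL38 and MRPL48 had groups that did not overlap. MRPL27 had 1 high value, 10.21 on siControl replicate 1 against 9.68 to 9.82 on the other arrays, and stood at 0.015 without it. MRPL46 was the exception, with 7.22 and 7.71 in siControl and 7.76 and 7.57 in siLSD1. Its difference of 0.20 rested on siControl replicate 1 and was -0.042 without it.

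Of the MRPS genes, those with the lowest differences and separate groups were MRPS18A, MRPS2, MRPS14, MRPS5 and MRPS12. MRPS14, the counterpart of bacterial S14, was at 9.23 and 9.06 in siControl and at 8.89 and 8.78 in siLSD1. MRPS12, the counterpart of bacterial S12 at the decoding centre, was at 8.66 and 8.68 and then at 8.44 and 8.31. In both genes the siLSD1 arrays lay below the siControl arrays by more than the replicates differed, and the differences were -0.31 (SE 0.17) and -0.30 (SE 0.19). The other probe set of MRPS14, of the more specific type, went the other way (0.50), and the mean of both gave 0.093. That other probe set was at 5.47 and 6.67 in siControl and at 6.59 and 6.55 in siLSD1. Its higher mean thus rested on the low value of siControl replicate 1. MRPS2 differed by -0.32 and MRPS5 by -0.30, the latter turning to 0.045 with the mean of its probe sets and moving to -0.16 without siLSD1 replicate 1. Without siControl replicate 1 MRPS2 was at -0.20. MRPS30, which despite its symbol sits in the large subunit, was at 8.70 and 8.62 in siControl and at 8.48 and 8.37 in siLSD1, a difference of -0.23 with separate groups. Both other probe sets of MRPS30 were lower too (-0.14 and -0.31).

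The human genome has 3 relatives of the bacterial protein S18, and their transcripts did not share a direction. MRPS18C, which takes the place of S18 in the small subunit, was at 8.17 and 8.88 in siControl and at 7.47 and 8.58 in siLSD1. Its groups overlapped and its difference of -0.50, the lowest of all 75, turned to 0.060 without siLSD1 replicate 1. MRPS18A, which lies in the large subunit, was at 7.92 and 7.77 and then at 7.73 and 7.08, a difference of -0.44 that was -0.11 without siLSD1 replicate 2. The other probe set of MRPS18A, of the more specific type, differed by -0.022. It was at 6.97 and 7.22 in siControl and at 6.85 and 7.29 in siLSD1, so its groups overlapped. MRPS18B, a further small-subunit protein, was at 8.13 and 8.40 in siControl and at 8.21 and 8.69 in siLSD1. Its difference of 0.19 turned to -0.047 without siLSD1 replicate 2, and its other probe set was lower, at 7.52 and 7.50 in siControl against 7.14 and 7.13 in siLSD1. In all 3 genes 1 array or 1 probe set decided the size or the sign.

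For 15 of the 16 members with a higher mean the lowest of the 4 values was that of siControl replicate 1, MRPL57 (0.0081) being the exception. Over all 75 members that array was the lowest in 26.7%, beside 26.8% of all genes tested. Higher and lower members were split by a difference that includes this array. Low values on it among the higher ones, and turns of sign without it, are therefore partly built in. No matching share was taken over all genes with a higher mean. When siControl replicate 1 was left out, 10 of the 16 turned below 0 and 7 of the 59 lower members turned above 0. MRPL16, named after its values were seen, was at 6.44 on that array and at 7.90, 7.70 and 7.92 on siControl replicate 2 and the siLSD1 arrays, so its difference of 0.63 became -0.095. MRPS34 had the same form, with 7.16 on siControl replicate 1 and 8.60, 8.24 and 7.80 on the others. It was also named after its values were seen, and its 0.14 became -0.58. MRPL20, the counterpart of bacterial L20, was at 9.72 and 10.54 in siControl and at 10.56 and 10.59 in siLSD1. Its groups did not overlap, but siControl replicate 2 lay next to the siLSD1 arrays, and the difference of 0.44 was 0.029 without siControl replicate 1 and 0.86 without siControl replicate 2. In that last fit, where a single control array is assumed to vary like the siLSD1 pair, MRPL20 was the only member with a limma adjusted p under 0.05 (0.0483). MRPL28 (0.26) was the third gene with a separate, higher siLSD1 group, and it was at 0.12 without siControl replicate 1.

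MRPS10 had the largest difference of all members. The counterpart of bacterial S10, it was at 8.62 and 8.97 in siControl and at 9.44 and 9.54 in siLSD1. Both siLSD1 arrays lay above both siControl arrays, and the group means of 8.80 ± 0.24 and 9.49 ± 0.076 (SD, n = 2) were 1.62-fold apart (difference 0.69, 95% interval 0.28 to 1.11, limma unadjusted p = 0.00470, adjusted p = 0.9996). The difference held at 0.52 to 0.87 as each array was left out. The 2 other probe sets of the gene went the other way. The first was at 8.16 and 8.06 in siControl and at 7.94 and 7.40 in siLSD1, and the second at 8.11 and 8.10 and then at 7.93 and 7.24. Their differences were -0.44 and -0.52, with separate groups in each, and the mean of the 3 probe sets gave -0.088. The direction of MRPS10 therefore depended on the probe set.

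Agreement between probe sets of a gene was limited in general. The 75 members had 140 probe sets, and 28 members had a further 50 that passed the filter besides the one used. Of these 50, 33 were lower and 17 higher, with a median of -0.11, and 29 (58%) had the sign of the probe set used, beside 52.9% over all genes. MRPS10 and MRPS5 were the only members with a further probe set that departed by over 1, and in MRPS5 it was at most at 4.26 in siControl and at 5.16 and 4.82 in siLSD1, close to the filter. For 45 of the 75 members the probe set used was of a type whose probes may match several transcripts or related sequences. With such probe sets left out, 42 members remained, 27 of them with a lower mean, at a median of -0.056. With the mean of all probe sets of a gene, 50 of 75 were lower and the median was -0.081. That mean also takes in 15 member probe sets that lay under the filter.

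**Figure D3:**
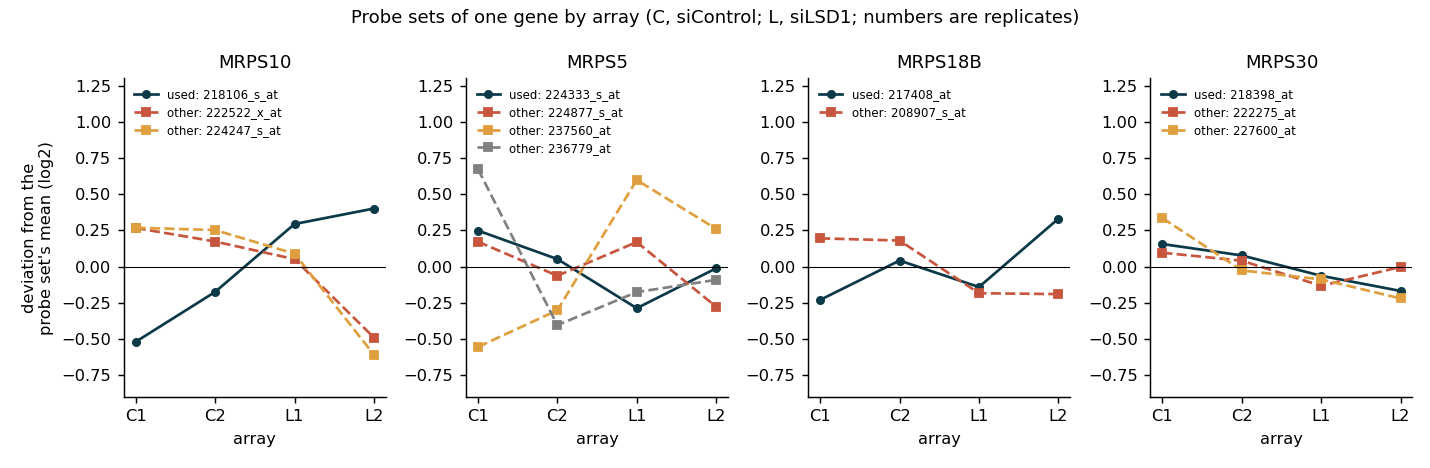
Deviation of each probe set above the filter from its own mean (log2) on the siControl (C1, C2) and siLSD1 (L1, L2) arrays for MRPS10, MRPS5, MRPS18B and MRPS30, with lines joining the values of 1 probe set. In MRPS10 the probe set used is higher in siLSD1 and both others are lower, in MRPS18B the other probe set alone is lower in siLSD1, and in MRPS30 all 3 have lower siLSD1 means.

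By origin, of 47 proteins with a bacterial counterpart, 35 (74.5%) were lower (median -0.13), and of 28 that belong to mitoribosomes alone, 24 (85.7%) were lower (median -0.12). The difference between these shares was not tested. Of the 47, 20 had a separate lower and 3 a separate higher siLSD1 group, and of the 28 it was 14 and 0. Over all genes 15.1% had a separate lower and 16.6% a separate higher group. These counts were not tested against each other either. Of 11 genes with known inherited deficiencies of mitochondrial translation, 10 (90.9%) were lower, MRPS34 being the exception, with a median of -0.15. Among all 75 members 78.7% were lower, and among all genes tested 48.7%. Of the 11, 3 differed by less than 0.1, and the share was not tested against that of the members.

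RefSeq promoter windows (GRCh38.p14, from 250 bases before to 50 after a transcription start) were available for 67 of the 75 members. The letters CCGGAAG, a core bound by ETS factors such as GABPA, stood on either strand in 29 of these 67 genes (43.3%), beside 12.2% of all 27305 genes in that table and 22.9% of those tested here. By window, 38.6% of 83 member windows held them and 10.3% of all 35116. The core of the YY1 element, whose first letters can be the last ones of CCGGAAG, was present in 9 members (13.4%, all 27305 genes 1.04%). CCAAT was present in 23 (34.3%, all 27305 genes 39.7%) and the NRF1 palindrome in 1, MRPL17 (1.49%, all 27305 genes 1.52%). Of the genes tested here, 2.42% had the YY1 core, 43.7% CCAAT and 2.83% the NRF1 palindrome. Members with CCGGAAG were lower in 24 of 29 cases (median -0.17) and those without in 28 of 38 (median -0.10). With CCAAT it was 20 of 23 (median -0.17), without it 32 of 44 (median -0.11), and with the YY1 core 5 of 9 (median -0.051). Over all tested genes, 53.5% of those with CCGGAAG were lower, 49.5% of those with CCAAT and 51.3% of those with the YY1 core. The stretches of 100 bases before the start of 4 members are shown, because the same letters stood close to the start in genes whose probe set used was higher and in genes where it was lower. They are given 5′ to 3′ on the gene's strand, with CCGGAAG in capitals.

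MRPS10 (chr6:42217862-42217961, minus strand): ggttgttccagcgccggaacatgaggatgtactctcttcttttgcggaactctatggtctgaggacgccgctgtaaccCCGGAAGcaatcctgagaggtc
MRPL20 (chr1:1407294-1407393, minus strand): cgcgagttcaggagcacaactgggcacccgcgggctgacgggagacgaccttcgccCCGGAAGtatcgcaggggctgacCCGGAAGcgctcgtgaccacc
MRPS18A (chr6:43687792-43687891, minus strand): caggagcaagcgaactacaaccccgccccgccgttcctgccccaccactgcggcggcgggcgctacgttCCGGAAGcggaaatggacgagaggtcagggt
MRPS12 (chr19:38930854-38930953, plus strand, the downstream of 2 listed starts): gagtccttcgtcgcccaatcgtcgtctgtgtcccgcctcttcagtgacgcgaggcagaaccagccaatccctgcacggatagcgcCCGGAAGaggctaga

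All 4 thus carried the same letters within 44 bases of a start, MRPL20 at 2 places. The directions of 3 of them are uncertain, since the mean of all probe sets gave -0.088 for MRPS10, MRPL20 was at 0.029 without siControl replicate 1, and MRPS18A was at -0.11 without siLSD1 replicate 2. A match is a description of the sequence and no evidence of binding.

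Several members share a promoter region with a neighbour on the other strand. A start on the other strand lay at most 1000 bases upstream for 25 of the 67 members (37.3%), beside 20.1% of all genes and 30.0% of the genes tested. For 18 of them the neighbour was tested, and 11 of these neighbours were lower and 7 higher, where 48.7% of all genes tested were lower. The neighbours had a median of -0.054 against -0.089 for the members themselves. MRPL46 and MRPS11 are each other's neighbour, 320 bases apart, and so count both as members and as neighbours. They differed by 0.20 and -0.14, with overlapping groups in both. MRPS12 (-0.30) lies 181 bases from SARS2, the mitochondrial seryl-tRNA synthetase. SARS2 was at 6.02 and 6.20 in siControl and at 6.23 and 6.36 in siLSD1, a difference of 0.18, so the pair lay on opposite sides.

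Of 4 tested genes for mitoribosomal proteins with other symbols, 4 had a higher mean, with a median of 0.20, and in all of them siControl replicate 1 was the lowest array. Without that array 2 of them had a higher and 2 a lower mean (median 0.0058). No test of a difference from the members was made. PTCD3, a small-subunit protein of the pentatricopeptide family, was at 7.79 and 8.67 in siControl and at 8.89 and 8.81 in siLSD1 (difference 0.62, limma unadjusted p = 0.0606), and differed by 0.18 without siControl replicate 1. DAP3, a GTP-binding protein of the small subunit, differed by 0.11 (0.048 without siControl replicate 1 and -0.032 with the mean of its probe sets), and GADD45GIP1, of the large subunit, by 0.28 (-0.16 without siControl replicate 1). CHCHD1, of the small subunit, differed by 0.035 (-0.036 without siControl replicate 1).

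Other genes of mitochondrial gene expression were mixed, and in limma 0 of them passed at an adjusted p under 0.05. At an unadjusted p under 0.05 there were 4 lower genes among the 96 tested in these 6 lists (4.17%, all genes 1.15%), METTL15 and TRMT2B of mitoribosome assembly and TIMM44 and HSPE1 of import and folding, and 0 higher ones (all genes 2.29%). Of 28 genes listed for mitoribosome assembly, 12 were higher and 16 lower (median -0.045). MRPL58 (-0.27), among the lower ones, is also a member, and so it counts there as well as in this list and the 96. METTL15, a methyltransferase of the small-subunit RNA, was at 6.13 and 6.52 in siControl and at 5.38 and 5.55 in siLSD1, a difference of -0.86 with separate groups. TRMT2B, a methyltransferase of mitochondrial RNA, had a difference of -1.26 and 1 low value, 4.23 on siLSD1 replicate 1 beside 6.11 on siLSD1 replicate 2, and was at -0.32 without the former. MTG2, a GTPase of large-subunit assembly, differed by 0.64.

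Of 14 mitochondrial translation factors and helpers, 8 were higher and 6 lower (median 0.027), among them GUF1 (0.53), a GTPase of elongation, LETM1 (0.62) of the inner membrane and MTFMT (-0.39), which formylates the initiator tRNA. Without siControl replicate 1, LETM1 was at 0.099 and GUF1 at 0.28, and the mean of its probe sets put GUF1 at 0.093. Of 15 mitochondrial tRNA synthetases, 9 were higher and 6 lower (median 0.0063), with PARS2 at 1.45, RARS2 at -0.20 and YARS2 at -0.39. PARS2 had a low value of 3.49 on siControl replicate 1 and 6.16, 6.41 and 6.14 on the other arrays, and its difference was 0.12 without that array, where RARS2 was at -0.073 and YARS2 at -0.14. In mitochondrial transcription, replication and RNA handling, 4 of 14 were higher and 10 lower (median -0.083), including the RNA nuclease PNPT1 (-0.25, and -0.11 without siControl replicate 1), LRPPRC (-0.10), which stabilises mitochondrial messengers, and the elongation factor TEFM (-0.21). LRPPRC and TEFM turned above 0 under median centring (0.017 and 0.011). Of 9 regulators of mitochondrial genes, 3 were higher and 6 lower (median -0.085), with MYC at -0.30, E2F1 at -0.24 and NRF1 at -0.22. NRF1 was at 0.11 without siControl replicate 1, MYC was at -0.015 without siControl replicate 2, E2F1 was at -0.11 without siControl replicate 1, and the groups of MYC and NRF1 overlapped. Of 16 genes of import and matrix folding, 5 were higher and 11 lower (median -0.032). TIMM44, of the import motor, was at 7.52 and 7.20 in siControl and at 6.32 and 6.62 in siLSD1, but a probe set of the more specific type gave 0.56. The chaperonin HSPE1 was at 11.18 and 11.11 and then at 10.97 and 10.88 (-0.22), and the chaperone HSPA9 differed by -0.23 (-0.080 without siLSD1 replicate 2).

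Related gene families differed in their counts. Of 55 tested cytosolic ribosomal protein genes, 28 lay above 0 and 27 below, at a median of 0.0010, and 9 had a separate higher and 12 a separate lower group (all genes 16.6% and 15.1%). Of 68 tested nuclear-encoded subunits of the respiratory chain, 29 lay above 0 and 39 below, at a median of -0.021, with 7 separate higher and 12 separate lower groups. The cytosolic family varied far less across its genes (SD 0.081) than the mitochondrial one (SD 0.23), and within groups as well (median SD 0.035 against 0.14). These are counts and medians over the same 4 arrays, and no test of the difference between the families was made.

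**Figure D4:**
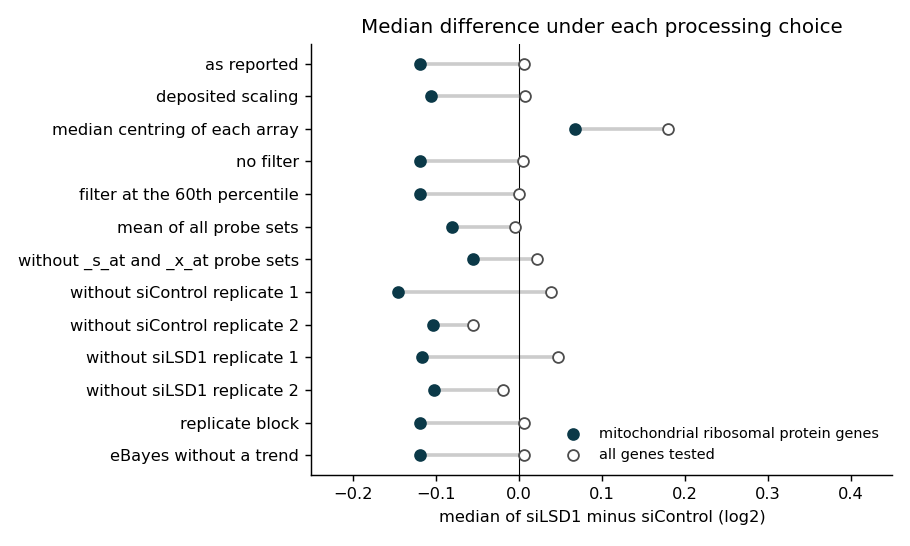
Median of siLSD1 minus siControl (log2) over the mitochondrial ribosomal protein genes (filled) and over all genes tested (open) as reported and under 12 other processing choices. The filled point lies left of the open one each time, by -0.048 without siControl replicate 2 to -0.18 without siControl replicate 1, but right of 0 under median centring of each array.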

How the data were processed

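RNA from 2 transfections per group was measured on Affymetrix arrays of 54675 probe sets. The authors deposited 1 log2 value per probe set and array. The scale was found from the values, since base-2 antilogs have a mean of 100.0 on each array with 2% trimmed at each end, and the sources used here do not give the summary method. Array medians ran from 4.01 to 4.27, and arrays were quantile normalized, which would remove a global shift. Probe sets were named through the platform annotation of 2016. A gene's probe set was the one with the highest mean. Genes under the 40th percentile (4.12) were left out, which left 11865. The test was limma 3.58.1 in R 4.3.3 (lmFit, eBayes with trend, two-sided, Benjamini-Hochberg over all genes, threshold 0.05, 8.22 degrees of freedom), and the fit was tested on simulated data. The number of arrays limits the precision.

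Members and lists were chosen with earlier results of these data known. Named by rule were KDM1A, in each of MRPL and MRPS up to 5 genes per direction with the largest differences among separate groups, the genes of 4 structural lists, MRPS30, genes with a probe set departing by over 1, and in other lists up to 3 genes with the smallest p. Levels of different probe sets were not compared. Alternatives were other scalings, filters, probe set rules and variance priors, leaving out each array, and a replicate term.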

Additional observations from a re-analysis of the deposited data

How the results depend on the processing

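The members' median lay below that of all genes under all 12 alternatives, but its sign and size depended on scaling and probe sets. Under median centring it turned to 0.067 (MRPL 0.070, MRPS 0.035) and 48 members were higher. With the mean of all probe sets it was -0.081 (MRPS -0.088) with 25 higher, and without probe sets of the _s_at and _x_at types -0.056 (MRPL -0.044, MRPS -0.076). As each array was left out it ran from -0.15 to -0.10 (MRPL -0.14 to -0.071, MRPS -0.19 to -0.11), with 13 to 23 members higher, 0 to 1 called (MRPL20) and 0 to 83 genes called among all. Without siControl replicate 2 limma called 83 genes and without siLSD1 replicate 1 it called 1. KDM1A ran from -1.39 to -1.25 and passed (-1.32, adjusted p = 0.0474) without siControl replicate 2. With the replicate number as a block, 13 genes were called, KDM1A among them (-1.32, adjusted p = 0.0194), and 0 members. Same-numbered arrays deviated together only weakly (r = 0.052 across genes). The sample titles link them by the number alone, and whether they share a transfection round was not tested.

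Single genes also turned. Under median centring these were MRPL1 (0.062), MRPL11 (0.17), MRPL18 (0.099), MRPL40 (0.18), MRPL45 (0.12), MRPL54 (0.093), MRPL55 (0.089), LRPPRC (0.017) and TEFM (0.011), and under the deposited scaling MRPL40 (0.010). With the mean of all probe sets they were DAP3 (-0.032), MRPL12 (0.054), MRPL55 (0.036), MRPS10 (-0.088), MRPS14 (0.093), MRPS18B (-0.093), MRPS5 (0.045), NRF1 (0.00037) and TEFM (0.58). Without the _s_at and _x_at types they were MRPS14 (0.50), MRPS5 (0.86), LRPPRC (0.24), HSPA9 (0.15) and TIMM44 (0.56), and KDM1A has no value there. As each array was left out, GADD45GIP1 ran from -0.16 to 0.72, MRPL11 from -0.13 to 0.055, MRPL16 from -0.095 to 1.36, MRPL17 from -0.10 to 1.07, MRPL22 from -0.013 to 0.66, MRPL27 from -0.46 to 0.015, MRPL40 from -0.15 to 0.096, MRPL45 from -0.24 to 0.011, MRPL46 from -0.042 to 0.45, MRPL55 from -0.35 to 0.066, MRPS18B from -0.047 to 0.42, MRPS18C from -1.05 to 0.060, MRPS34 from -0.58 to 0.86 and NRF1 from -0.55 to 0.11. Median centring moved each gene up by the same amount from its value under the deposited scaling. The cause of the other turns was not tested. Of 75 members, 44 kept their sign without each array in turn, 39 of them lower.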
